A study of Homo sapiens with 24 samples.

Results

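Neratinib re-exposure of resistant OVCAR8 cells is the comparison of 3 libraries from a neratinib-resistant derivative of the OVCAR8 line given 1 µM neratinib with 3 libraries from the same derivative without drug. These 6 libraries, of 24 in the series, were chosen by their labels and were fitted on their own. OVCAR8 is an established human ovarian carcinoma line, and neratinib is an irreversible inhibitor of the ERBB family kinases EGFR, HER2 and HER4. The resistant derivative, called OVCAR8 NR below, was kept without drug for 1 week, seeded in triplicate dishes, treated or left untreated, and harvested 24 h later. Both of its groups therefore descend from cells that had lived with the drug, and both had the same drug-free week. The comparison groups were parental OVCAR8 cells with or without 1 µM neratinib for 24 h, and 5637 NR, the resistant derivative of the 5637 bladder carcinoma line, with or without 600 nM neratinib for 24 h after its own drug-free week. Whether each derivative is a single clone or a pool is not given in the sources used here. Nothing in the labels says that the dishes of a group came from separate cultures, so the p-values measure the spread between dishes, which may be technical.

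Neratinib blocks signalling from ERBB receptors into the RAS-ERK and PI3K-AKT-mTOR cascades. ERK signalling induces short-lived transcription factors and its own feedback inhibitors, the DUSP phosphatases and the Sprouty proteins. ATF4 is the transcription factor of the integrated stress response: it switches on genes that make, import and attach amino acids, and it can be driven by eIF2 alpha kinases or by mTORC1. SREBP factors switch on sterol synthesis and uptake when membrane cholesterol is low, and INSIG1 holds them in the endoplasmic reticulum.

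The 6 libraries held 23849832 to 45369835 gene counts each. Their first principal component separated drug from control and carried 37.3% of the variance among them. Ovarian labels were only partly borne out by marker genes: PAX8, a Müllerian transcription factor, read 69.2 to 86.1 CPM (a gene's count per 1000000 gene counts of its library), while WT1 stayed at or under 1.58 CPM and MUC16, which encodes CA125, at or under 0.22 CPM. The leukocyte marker PTPRC had no count in any of the 6. Over the 6 libraries the whole ovarian list, which holds the keratins KRT7, KRT8 and KRT18, summed to 2631 to 3086 CPM. The fibroblast list summed to 739 to 971 CPM, the endothelial list to 16.2 to 22.1 CPM and the leukocyte list to 4.11 to 5.13 CPM. Fewer cells of a kind and less RNA per cell cannot be told apart in bulk libraries such as these.

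Traces of transcripts abundant in 5637 stood in drug-treated OVCAR8 NR libraries and in a parental OVCAR8 control library. KRT19, a keratin abundant in 5637, had 17 counts in parental control library 3, which is kept in the difference from parental cells below. The remaining parental libraries had 0 to 5. In OVCAR8 NR it had 63 counts in neratinib library 1, 24 in library 3 and 2 in library 2, against 1 in each control library. The KRT19 level of neratinib library 1 was 0.166% of the 5637 NR mean. Of the 48 tested genes whose mean CPM in 5637 was over 100 times that in the OVCAR8 NR controls, 8 rose and 1 fell. Over all genes tested 9.61% rose and 11.8% fell. The 48 were chosen by a low level in these same controls, which favours rises over falls. The part of carried-over transcripts in other genes was not tested. With neratinib libraries 1 and 3 left out, a fit of 1 treated library against 3 controls whose spread comes from the controls alone, the 10 largest rises and 10 largest falls all kept their call. Over all 8384 genes past that 100-fold ratio, tested or not, the library left in that fit summed to 105 CPM and the controls to 61.0 to 66.9 CPM; the ratio was taken against these controls, so their sum is low by choice.

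Re-exposed OVCAR8 NR cells raised amino acid supply genes and lowered sterol, glycolysis and inflammatory cytokine genes, mostly by less than 2-fold. Of 17000 genes tested with edgeR at an adjusted p under 0.05, 1633 rose (9.61%) and 2008 fell (11.8%). At least 2-fold changes were found in 53 rising genes (0.312%) and 54 falling genes (0.318%). Over all 17000 genes, the treated libraries lay wholly above the controls in 3738 and wholly below them in 2744. Genes named as the largest changes were required to show such a gap. The 10 largest rises among genes of at least 10 CPM were CHAC1, ASNS, SLC7A11, ALDH1L2, ADM2, PHGDH, PSAT1, PCK2, SLC1A4 and ULBP1, and 8 of them are in the amino acid and stress lists below. The other two, PCK2, a mitochondrial gluconeogenic enzyme, and ULBP1, a ligand of the NKG2D receptor, rose by 0.97 and 0.90, PCK2 from 93.3, 87.9 and 82.2 CPM to 180, 166 and 179 CPM. Among the 10 largest falls were INSIG1, MMP1, HK2, IL1B, SCG5, AJAP1, ICAM5, HMGCS1 and LYPD5. Scaling by library size alone gave 2126 rises and 1667 falls, so that 56.1% of calls were rises in place of 44.9%. Transcript GC content moved with direction: its median was 46.5% in rising genes, 57.8% in falling genes and 49.8% in all tested. The median log2 deviation of the 1945 most GC-rich genes from their own means differed by group. It was 0.148, 0.062 and 0 in the controls and −0.037, −0.154 and −0.016 with neratinib. The source of that difference was not tested. With GC-adjusted offsets, 1463 of the rising and 1523 of the falling genes kept their call.

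**Figure D1:**
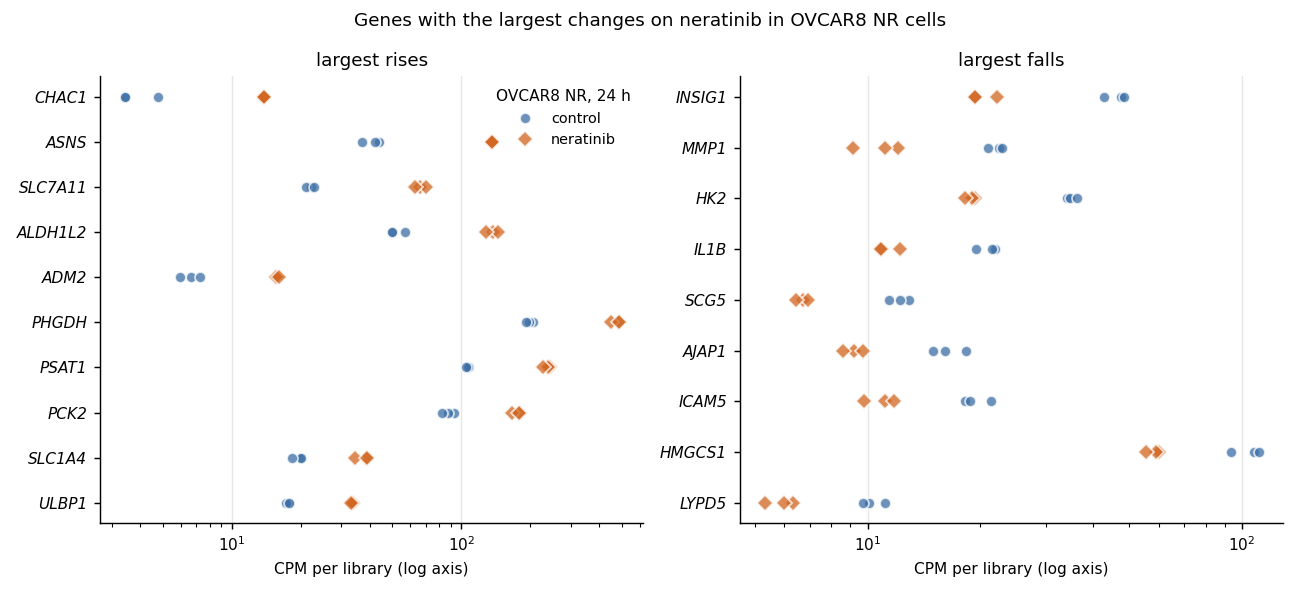
Level in CPM (log axis) of the 10 genes that rose most and 9 of the 10 that fell most in OVCAR8 NR cells, with 1 point per library for 3 control and 3 neratinib (1 µM, 24 h) libraries. For each of these genes the control and neratinib points do not overlap, which the rule for choosing them required.

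The stress regulators rose together. Of 17 tested integrated stress response regulators, 13 rose and 0 fell, with a median log2 change of 0.21, against a median of −0.003 over all genes tested. CHAC1, a glutathione-degrading enzyme and ATF4 target (ENSG00000128965.7, hg19 chr15:41245160-41248710), read 3.43, 4.78 and 3.41 CPM in the controls and 13.7, 13.8 and 13.9 CPM with neratinib. All 3 treated libraries lay above all 3 controls, which the rule for naming CHAC1 required. The log2 change was 1.85 ± 0.11 (SE, n = 3 and 3, edgeR adjusted p = 4.4e-08). ATF4 itself (ENSG00000128272.10, hg19 chr22:39915700-39918691) went from 378, 380 and 379 CPM to 573, 571 and 579 CPM, a log2 change of 0.57 ± 0.03 (edgeR adjusted p = 1.4e-08). Its spread within a group was far smaller than the step between groups. DDIT3, which encodes the stress factor CHOP, rose by 0.57, from 7.34, 8.01 and 8.18 CPM to 12.1, 11.3 and 12.1 CPM. DDIT4, an inhibitor of mTORC1, read 4.71, 5.28 and 4.18 CPM against 7.38, 5.46 and 6.55 CPM, a log2 change of 0.44 (edgeR adjusted p = 0.024); dropping control library 3 (adjusted p = 0.098), neratinib library 1 (0.11) or neratinib library 3 (0.063) ended that call. With neratinib libraries 1 and 3 both left out, which leaves 1 treated library and takes the spread from the 3 controls alone, 8 of the 17 regulators rose and 1 fell.

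Enzymes that make serine, glycine and asparagine led the next list. Of 21 amino acid synthesis enzymes, 12 rose and 3 fell, with a median log2 change of 0.19. ASNS, asparagine synthetase (ENSG00000070669.12, hg19 chr7:97481430-97501854), went from 43.6, 42.1 and 36.9 CPM to 135, 137 and 136 CPM, which was 1.71 ± 0.06 on the log2 scale (SE, n = 3 and 3, edgeR adjusted p = 1.3e-10). No control library came near the treated ones. The naming rule took the largest log2 changes with groups that do not overlap, so a wide gap was part of the choice. PHGDH, the first enzyme of serine synthesis, rose by 1.23 ± 0.04, from 206, 198 and 192 CPM to 486, 450 and 485 CPM. PSAT1, the next enzyme of that pathway, rose by 1.13, from 108, 107 and 105 CPM to 244, 239 and 227 CPM. ALDH1L2, a mitochondrial folate enzyme, rose by 1.38, from 49.7, 56.9 and 49.8 CPM to 138, 145 and 129 CPM. These 4 enzymes passed the edgeR threshold without any 1 of the 6 libraries. The fallers were small: ASL of arginine synthesis fell by 0.28, ALDH18A1 of proline synthesis by 0.14 and the cytosolic folate enzyme MTHFD1 by 0.11. Leaving out control library 2, neratinib library 1 or neratinib library 2 left 1 of those 3 falls.

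Amino acid carriers split. Among 17 transporters 8 rose and 3 fell, with a median log2 change of 0.04. SLC7A11, the cystine importer (ENSG00000151012.9, hg19 chr4:139085251-139163503), went from 22.2, 21.1 and 22.8 CPM to 66.4, 70.3 and 62.9 CPM, a log2 change of 1.56 ± 0.06 (SE, n = 3 and 3, edgeR adjusted p = 1.5e-10). The glycine transporter SLC6A9 rose by 1.44, the neutral amino acid transporter SLC1A4 by 0.92 and the leucine transporter SLC7A5 by 0.82. The glutamate transporter SLC1A3 fell by 0.48, the cationic amino acid transporter SLC7A2 by 0.22 and SLC7A6 by 0.16. The SLC7A2 call was lost without control library 1, and the SLC7A6 call without control library 2, neratinib library 1 or neratinib library 2. Across the 3 lists together 33 genes rose and 6 fell.

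Cytosolic aminoacyl-tRNA synthetases, which charge tRNAs with amino acids, rose in 12 of 19 cases and fell in 1, with a median log2 change of 0.24; the counts were 12 and 1 without any 1 of the 6 libraries. AARS, the alanine enzyme, went from 377, 374 and 363 CPM to 584, 586 and 589 CPM, a log2 change of 0.63 ± 0.03 (edgeR adjusted p = 1e-08). YARS rose by 0.57, GARS by 0.51 and WARS by 0.51, while FARSA, a subunit of the phenylalanine enzyme, fell by 0.34. Their mitochondrial counterparts did not move with them: 0 of 16 rose and 6 fell, the median was −0.10, and NARS2 fell by 0.30. That count of falls was 3 without control library 3. Among 7 tested stress-induced secreted factors, 4 rose and 1 fell: ADM2 by 1.24, the angiogenic factor VEGFA by 0.53, STC2 by 0.26, and INHBE, which encodes an activin subunit, by 0.99 from 1.05, 1.26 and 0.821 CPM to 1.91, 1.95 and 2.31 CPM. The faller was IL6, described with the cytokines.

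The upstream sequences of 3 rising genes are shown because they hold the letters TGATGNAA, written after the amino acid response element that ATF4 complexes bind; the match, on either strand, is in capitals. Each is the 250 bases before the RefSeq start on GRCh38.p14, read in the direction of the gene: CHAC1 at chr15:40953221-40953470 on the plus strand, ASNS at chr7:97872409-97872658 on the minus strand and CEBPG, a partner of ATF4, at chr19:33373863-33374112 on the plus strand.
CHAC1: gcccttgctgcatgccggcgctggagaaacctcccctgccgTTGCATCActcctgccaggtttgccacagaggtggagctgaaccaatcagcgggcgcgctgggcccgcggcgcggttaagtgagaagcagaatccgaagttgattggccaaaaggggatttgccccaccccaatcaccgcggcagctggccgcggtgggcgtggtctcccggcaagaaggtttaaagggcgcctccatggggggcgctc
ASNS: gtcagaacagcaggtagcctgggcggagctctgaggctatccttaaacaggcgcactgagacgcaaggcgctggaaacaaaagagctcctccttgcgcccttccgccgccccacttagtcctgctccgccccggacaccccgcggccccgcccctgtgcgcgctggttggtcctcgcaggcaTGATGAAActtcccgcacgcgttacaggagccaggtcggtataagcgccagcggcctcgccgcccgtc
CEBPG: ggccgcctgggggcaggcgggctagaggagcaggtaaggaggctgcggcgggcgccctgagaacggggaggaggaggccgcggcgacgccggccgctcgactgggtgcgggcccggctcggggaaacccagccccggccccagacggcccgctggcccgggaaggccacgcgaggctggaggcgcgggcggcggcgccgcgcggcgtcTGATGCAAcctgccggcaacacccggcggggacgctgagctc
The match began 209 bases before the start in CHAC1, 68 in ASNS and 42 in CEBPG. CEBPG rose by 0.26, from 44.1, 44.5 and 42.8 CPM to 55.3, 52.8 and 52.3 CPM. Of the 33 rising members of the 3 lists, 26 had a promoter entry and 7 of these (26.9%) held the letters; so did 1 of the 5 falling members with an entry, SLC1A3. Over 27305 genes of the table with an entry the share was 3.89%. The match is a description of these windows and not a mapped binding site, and the lists were known to hold ATF4 targets when they were written.

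Sterol synthesis and uptake genes fell. Of 24 tested members of the SREBP list, 16 fell and 1 rose, with a median log2 change of −0.50; both counts were the same without any 1 of the 6 libraries. INSIG1, the sterol-sensing anchor of SREBP and itself an SREBP target (ENSG00000186480.8, hg19 chr7:155089486-155101945), went from 42.9, 47.6 and 48.4 CPM to 19.4, 22.2 and 19.4 CPM, a log2 change of −1.21 ± 0.06 (SE, n = 3 and 3, edgeR adjusted p = 1.7e-08). The highest treated library was well under the lowest control, a gap that the naming rule favoured by taking the largest falls without overlap. HMGCS1, the enzyme before HMG-CoA reductase, fell by 0.86, from 93.4, 108 and 111 CPM to 60, 59.1 and 55.4 CPM. TM7SF2, a sterol reductase, was the riser, by 0.60. Fatty acid genes were mixed, with 8 falls and 1 rise in 18 and a median of −0.10. FASN, the fatty acid synthase, fell by 0.79, from 700, 662 and 609 CPM to 396, 356 and 413 CPM. SCD, a desaturase, fell by 0.73 and SREBF1 by 0.43. ACACB, a mitochondrial acetyl-CoA carboxylase, was the riser, by 0.26, a call lost without control library 1 or neratinib library 1.

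Upstream windows of 2 sterol genes are given with the letters ATTGG in capitals, the reversed CCAAT box that the factor NF-Y binds. This motif was chosen after the windows had been read. Both windows are the 250 bases before the RefSeq start on GRCh38.p14: INSIG1 at chr7:155297628-155297877 on the plus strand and HMGCS1 at chr5:43313413-43313662 on the minus strand.
INSIG1: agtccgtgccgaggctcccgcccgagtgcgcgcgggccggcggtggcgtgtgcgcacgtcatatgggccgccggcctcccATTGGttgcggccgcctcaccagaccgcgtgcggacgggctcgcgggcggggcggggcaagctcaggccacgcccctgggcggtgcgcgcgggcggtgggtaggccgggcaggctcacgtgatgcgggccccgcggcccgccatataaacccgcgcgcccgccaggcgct
HMGCS1: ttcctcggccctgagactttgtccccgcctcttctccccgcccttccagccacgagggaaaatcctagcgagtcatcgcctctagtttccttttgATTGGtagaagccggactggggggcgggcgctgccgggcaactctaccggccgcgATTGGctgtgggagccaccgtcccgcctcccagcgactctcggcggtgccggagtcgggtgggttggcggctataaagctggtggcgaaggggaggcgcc
The letters, sought on both strands, occurred in 10 of the 11 falling sterol genes with a promoter entry (90.9%). Of the tested members of the 3 amino acid and stress lists, 28 of 43 with an entry held them (65.1%). The share was 37% of the 27305 genes. TCACNCCAC, a sterol response element, was found in 1 of the 17 sterol genes with an entry, SREBF2, and in 1.09% of the 27305 genes. The rest of the 24 tested sterol genes had no entry. TGATGNAA was in 0 of the 17.

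Glycolysis and hypoxia targets fell almost throughout the list. Of 27 tested genes 22 fell and 0 rose, with a median log2 change of −0.33. HK2, the inducible hexokinase, went from 34.1, 34.7 and 36.4 CPM to 19.4, 19 and 18.2 CPM, a log2 change of −0.92 ± 0.06 (edgeR adjusted p = 5e-08). BNIP3, a mitophagy receptor, read 112 CPM in each control and 68.4, 68.4 and 66.2 CPM with drug. The treated values lay at about the same level in the 3 libraries, a log2 fall of 0.75. The vasodilator peptide gene ADM fell by 0.80 and PDK1, a kinase that inhibits pyruvate dehydrogenase, by 0.68.

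Cytokine and NF-κB genes were lower after re-exposure. Of 26 tested genes 14 fell and 2 rose, with a median log2 change of −0.35, and the falls numbered 10 to 13 when 1 library was left out. IL1B, the interleukin-1 beta gene (ENSG00000125538.7, hg19 chr2:113587328-113594480), went from 19.5, 21.9 and 21.6 CPM to 10.8, 12.2 and 10.9 CPM, a log2 change of −0.91 ± 0.07 (SE, n = 3 and 3, edgeR adjusted p = 1.2e-06). The treated libraries formed a separate lower group, which the naming rule required. CCL20, a chemokine, fell by 0.98, from 7.04, 9.56 and 7.92 CPM to 3.28, 4.75 and 4.32 CPM. The cytokine IL11 fell by 0.89 and the NF-κB inhibitor NFKBIB by 0.56. BIRC3, an inhibitor of apoptosis, rose by 0.26, a call lost without neratinib library 2, and NFKBIA, the NF-κB inhibitor alpha, rose by 0.19. IL6 fell by 0.46, and its call was lost without control library 2 (adjusted p = 0.06) or neratinib library 1 (0.057). Other secreted or surface genes among the largest falls were MMP1, a collagenase, from 22.4, 21 and 22.9 CPM to 12.1, 9.13 and 11.1 CPM, ICAM5 by 0.87, SCG5 by 0.89, AJAP1 by 0.88 and LYPD5 by 0.83.

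ERBB receptor genes differed by at most 0.13 on the log2 scale, while ERK-induced genes fell more often than they rose. All tested genes also did so, with 11.8% falling and 9.61% rising. Among the 3 tested receptors EGFR rose by 0.13 ± 0.03, from 327, 336 and 331 CPM to 355, 376 and 371 CPM (edgeR adjusted p = 0.015), a call lost without neratinib library 3 (adjusted p = 0.055). ERBB2 read 118, 115 and 113 CPM against 123, 118 and 126 CPM, and its groups nearly met (log2 change 0.06 ± 0.04, edgeR adjusted p = 0.29; with GC-adjusted offsets 0.16, adjusted p = 0.00024). ERBB3 had a log2 change of 0.08 (edgeR adjusted p = 0.23). Of 7 ligand genes, NRG2 rose by 0.54 from under 2.1 CPM, and HBEGF fell by 0.18, a call that 5 of the 6 leave-one-out fits lost, every one but that without control library 2. EGF, BTC, EPGN, NRG1 and NRG4 did not pass. Of the feedback inhibitors, 3 of 9 DUSP phosphatases fell, led by DUSP5, from 55.5, 51.3 and 54.4 CPM to 39.3, 37.3 and 38.6 CPM (log2 change −0.51), and DUSP1 (−0.38). The ERK phosphatase DUSP6 read 6.13, 4.74 and 6.44 CPM against 5.1, 5.24 and 5.07 CPM, and its groups overlapped (log2 change −0.21 ± 0.11, edgeR adjusted p = 0.21).

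Among 6 Sprouty and SPRED inhibitors 3 fell and 0 rose, where 11.8% of all tested genes fell and 9.61% rose. SPRY4 fell by 0.26, from 20.9, 20.5 and 19.6 CPM to 16.5, 18.2 and 17.1 CPM. Of 7 ERK-induced ETS factors 2 fell: ETV4 by 0.47, from 79.4, 84.2 and 79.9 CPM to 57.8, 59.7 and 61.3 CPM, and ELK3 by 0.19. Its relative ETV5 read 97, 95.2 and 96.6 CPM against 99.5, 100 and 95.2 CPM, with overlapping groups and a log2 change of 0.00 ± 0.04 (edgeR adjusted p = 0.96). Immediate early factors fell in 8 of 17 cases and rose in 2, with MAFF (−0.59), JUNB (−0.59) and IER2 (−0.34) among the falls; without control library 2 the falls numbered 5, and without control library 1, control library 2 or neratinib library 3 no rise was left. EGR1 read 14.7, 28.2 and 26.4 CPM against 11, 14.3 and 15.6 CPM. Its lowest control lay inside the treated range. The log2 change of −0.76 ± 0.18 passed with edgeR (adjusted p = 0.0086) but not when control library 2 was dropped (adjusted p = 0.059) or with DESeq2 (0.058). Of 17 other ERK output genes 10 fell and 1 rose, with a median of −0.22: PHLDA2 fell by 0.81, the coagulation inhibitor TFPI2 by 0.76 and the urokinase receptor PLAUR by 0.67, while urokinase itself, PLAU, rose by 0.36.

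Most cell division genes did not pass the test, as was true of 13359 of all 17000 genes, and ribosome assembly genes were lower. Over all genes 9.61% rose and 11.8% fell. Of 36 mitosis genes 3 rose and 2 fell, with a median of 0.04; the rises numbered 1 to 8 when 1 library was left out, 1 without control library 2 or neratinib library 1 and 8 without control library 3. Scaling by library size alone gave 10 rises and 1 fall. FOXM1, the transcription factor of the mitotic programme, rose by 0.22, from 295, 300 and 297 CPM to 352, 347 and 357 CPM (edgeR adjusted p = 0.00023), and CDC20, an activator of the anaphase-promoting complex, fell by 0.19. Of 39 replication genes 2 rose and 6 fell, with a median of −0.04; 0 rises were left without control library 1, control library 2, neratinib library 1 or neratinib library 2. POLD1, a polymerase subunit, fell by 0.36, the helicase subunit MCM7 by 0.22 and the primase partner POLA2 by 0.19. Of 39 ribosome biogenesis genes 19 fell and 1 rose, with a median of −0.16. MYBBP1A fell by 0.49, BOP1 by 0.36, RRP9 by 0.34 and NOC4L by 0.32, while the RNA polymerase I factor UBTF rose by 0.21.

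With GC-adjusted offsets 12.5% of all genes rose and 12.3% fell, and the counts of rises and falls were 14 and 0 for the stress regulators, 13 and 3 for the synthesis enzymes, 9 and 3 for the transporters, and 13 and 2 for the cytosolic tRNA synthetases. They were 2 and 16 for sterol genes, 0 and 24 for glycolysis genes, 3 and 13 for cytokine genes, 1 and 24 for ribosome biogenesis genes, and 2 and 4 for mitosis genes.

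The next comparison asked whether the drug acts differently in resistant and parental OVCAR8 cells, which received the same dose for the same time. Amino acid and stress genes rose less in OVCAR8 NR than in parental cells, sterol genes fell less, and the replication and mitosis genes that fell in parental cells did not fall as a group. The difference of the 2 drug effects was tested in 11 libraries without parental control library 2, because genes longer than 8 kb made up 14.1% of its counts, where the remaining OVCAR8 libraries had 20.4% to 21.2%. Of 18537 genes, the change was higher in OVCAR8 NR than in parental cells for 3157 (17.0%) and lower for 2919 (15.7%). With all 12 libraries it was higher for 835 (4.62%) and lower for 760 (4.21%). In the parental drug contrast, taken from the same fit of 11 libraries, 4506 genes rose (24.3%) and 4611 fell (24.9%). The drug contrasts of the 2 cell states compare different libraries, but the parental fit took its gene filter and spread partly from the OVCAR8 NR libraries. In both states 1071 genes rose, which is 65.6% of the OVCAR8 NR rises and 24.7% of the parental rises. Falls shared by both numbered 1189, which is 59.2% and 26.2%. Of the shared rises 84.8% were smaller in OVCAR8 NR, and of the shared falls 77%.

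**Figure D2:**
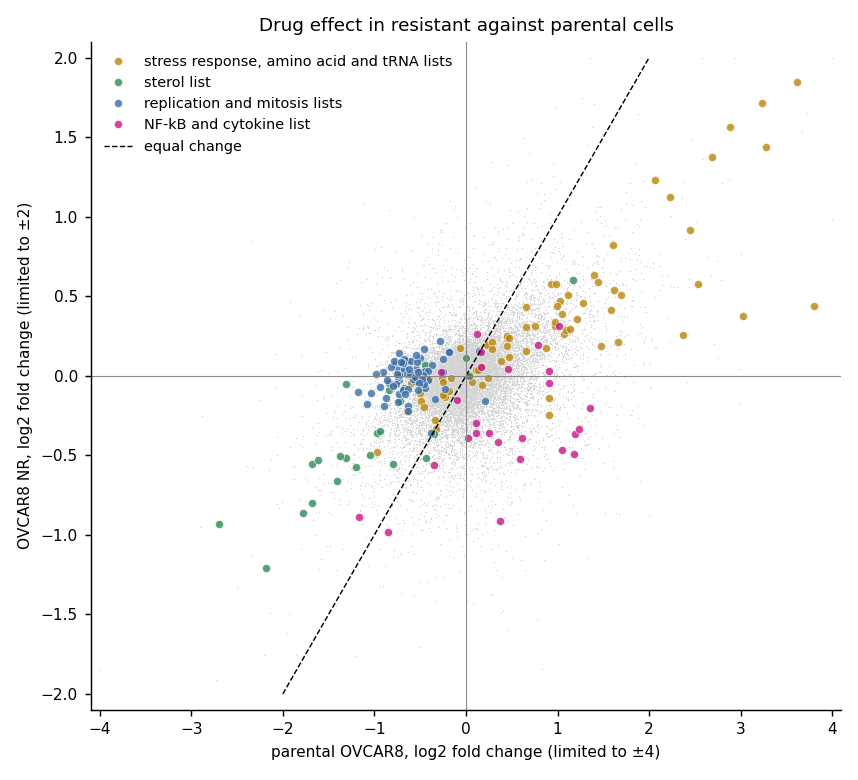
Log2 change with 1 µM neratinib in OVCAR8 NR (vertical axis, limited to ±2) against that in parental OVCAR8 (horizontal axis, limited to ±4), with 1 point per gene tested and 4 groups of list genes in colour. The dashed line marks equal change; ASNS, at 1.71 in OVCAR8 NR and 3.23 in parental cells, lies below the line.

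ASNS went from 40.9, 58.4 and 43.8 CPM in the parental controls to 409, 422 and 405 CPM with drug. Its log2 change was 3.23 in parental cells and 1.71 in OVCAR8 NR, a difference of −1.52 ± 0.07 (edgeR adjusted p = 3.2e-12; with all 12 libraries −1.28, adjusted p = 0.0033). The undrugged levels of the 2 cell states were alike for this gene and the treated ones were not. CHAC1 changed by 3.61 in parental cells, with a difference of −1.76, and SLC7A11 by 2.88, with a difference of −1.32. For ATF4 the parental change was 0.92 and the difference −0.35, which was called in 11 libraries and was −0.05 with all 12 (adjusted p = 0.92). Of 18 tested regulators, 1 changed higher and 12 lower in OVCAR8 NR (0 and 8 with all 12 libraries), of 21 synthesis enzymes 3 and 15 (2 and 10), of 17 transporters 4 and 9 (0 and 7), and of 19 cytosolic tRNA synthetases 3 and 13 (0 and 4). NUPR1, a stress-induced nuclear protein gene and the highest parental point of the regulators, read 0, 0.435 and 0.049 CPM in the parental controls and 7.29, 6.76 and 6.23 CPM with drug, while all 6 OVCAR8 NR libraries were at or under 0.264 CPM. The medians of these 4 lists in parental cells were 1.00, 0.88, 0.65 and 0.45, and the median difference over all genes was −0.03.

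**Figure D3:**
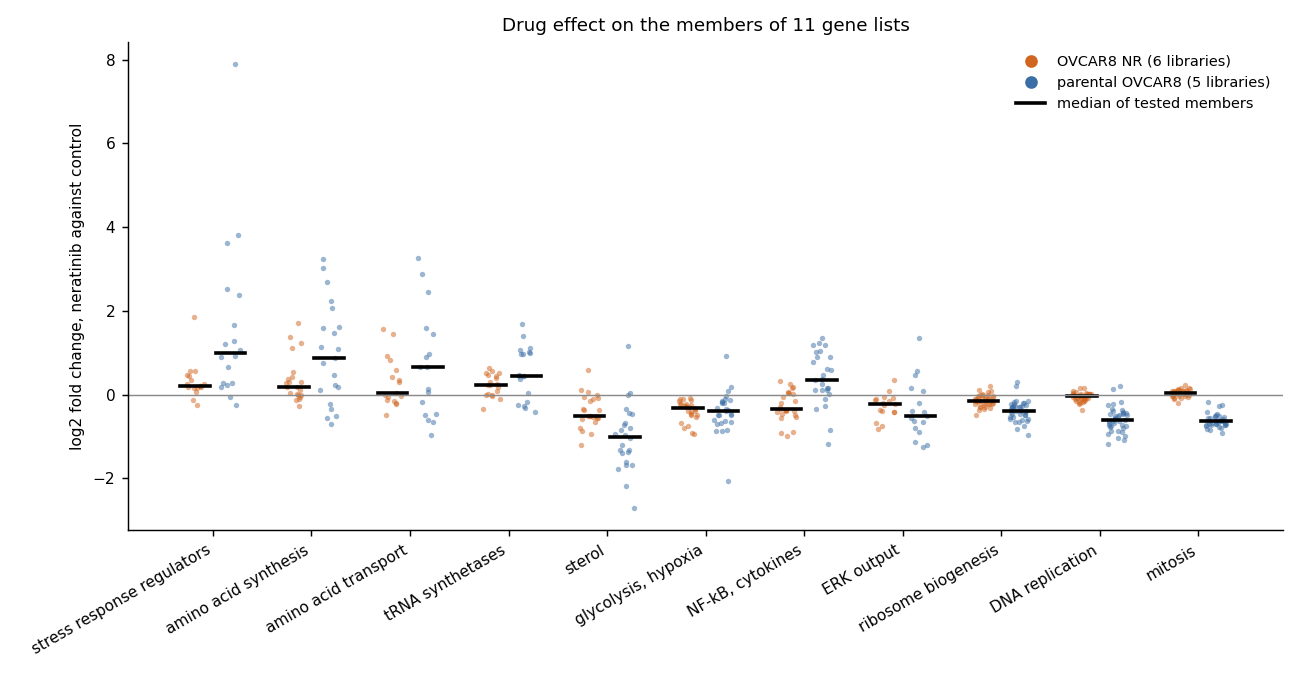
Log2 change with 1 µM neratinib of the members of 11 gene lists in OVCAR8 NR (orange) and in parental OVCAR8 (blue), with 1 point per gene and a black bar at each list's median. The median of the stress regulators was 0.21 in OVCAR8 NR and 1.00 in parental cells, and that of the sterol list −0.50 and −1.01.

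The 5 genes whose change was lowest in OVCAR8 NR relative to parental cells were INHBE, DDIT4, IL20RB, ASS1 and TRIB3. INHBE read 1.1, 1.65 and 1.44 CPM in the parental controls and 36.7, 36.9 and 34.1 CPM with drug, and its difference was −3.77 ± 0.24 (edgeR adjusted p = 1.3e-10). In OVCAR8 NR no treated library passed 2.31 CPM. DDIT4 went from 2.26, 4.9 and 4.43 CPM to 49.6, 49.7 and 45.5 CPM in parental cells, a difference of −3.36. ASS1, which makes the precursor of arginine, went from 18.9, 28.8 and 22.1 CPM to 174, 169 and 177 CPM in parental cells and from 12.4, 12.2 and 11.3 CPM to 14.8, 16.4 and 16.1 CPM in OVCAR8 NR, a difference of −2.65. The pseudokinase TRIB3, an ATF4 target that restrains ATF4, changed by 2.37 in parental cells and 0.26 in OVCAR8 NR, a difference of −2.12. IL20RB, a cytokine receptor subunit, changed by 2.98 in parental cells and did not pass in OVCAR8 NR (log2 change −0.18, edgeR adjusted p = 0.52), a difference of −3.16.

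At the other end stood TFRC, RN7SK, RN7SL1 and ACAT2. TFRC read 183, 79.5 and 156 CPM in the parental controls and 50.1, 51 and 51.4 CPM with drug, against 140, 133 and 144 CPM and 134, 131 and 124 CPM in OVCAR8 NR. The treated parental libraries lay far under every OVCAR8 NR library. TFRC, the transferrin receptor, changed by −1.79 in parental cells and −0.13 in OVCAR8 NR, a difference of 1.66 ± 0.07 (edgeR adjusted p = 7e-13). ACAT2, the acetyl-CoA acetyltransferase of sterol synthesis, changed by −1.31 in parental cells and did not pass in OVCAR8 NR (−0.05, adjusted p = 0.44), a difference of 1.26. RN7SK and RN7SL1 are abundant small non-coding RNAs made by RNA polymerase III and not polyadenylated; RN7SK ranged from 7.51 to 21.6 CPM over the parental controls alone, and the differences of 1.42 and 1.36 are given as measured. Of 24 sterol genes, 17 had a higher and 1 a lower change in OVCAR8 NR (16 and 0 with all 12 libraries).

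The cytokine list moved in opposite directions in the 2 cell states. In parental cells 15 of the 26 tested NF-κB and cytokine genes rose and 3 fell, where 14 had fallen in OVCAR8 NR. The difference was lower in OVCAR8 NR for 18 of 26 genes and higher for 0 (11 and 0 with all 12 libraries), with a median of −0.60. IL1B read 2.9, 3.74 and 3.62 CPM in the parental controls and 4.83, 4.27 and 4.04 CPM with drug, so the OVCAR8 NR level stayed above the parental one with or without drug. Its difference was −1.28 ± 0.15 (edgeR adjusted p = 9.5e-07; with all 12 libraries −1.16, adjusted p = 0.0031). IL6 changed by 1.04 in parental cells and −0.46 in OVCAR8 NR, a difference of −1.51. JUNB changed by 0.63 and −0.59, a difference of −1.22 that was −0.86 with all 12 libraries (adjusted p = 0.08). CCL20 and IL11 fell in both states, by 0.85 and 1.17 in parental cells. Of 27 glycolysis and hypoxia genes, 21 fell in parental cells, with a median of −0.39 against −0.33 in OVCAR8 NR; the difference was higher in OVCAR8 NR for 5 and lower for 6 (4 and 1 with all 12 libraries), with a median of 0.05. Among the lower, HK2 and BNIP3 fell more in OVCAR8 NR than in parental cells, with differences of −0.47 and −0.58; with all 12 libraries these were −0.63 (adjusted p = 0.059) and −0.39 (0.17).

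Every tested mitosis gene, 36 of 36, fell in parental cells, with a median of −0.64, and 37 of 39 replication genes fell, with a median of −0.61. The change in OVCAR8 NR was higher for 36 of 36 mitosis genes (25 with all 12 libraries) and for 36 of 39 replication genes (26). Summed over the mitosis list, OVCAR8 NR read 6327, 6464 and 6636 CPM without and 6674, 6762 and 6726 CPM with drug. Parental cells read 6354, 5984 and 6478 CPM without and 4362, 4218 and 4416 CPM with drug. The untreated sums of the 2 states were close, and the treated sums stood apart. FOXM1 changed by −0.28 in parental cells, a difference of 0.50 that was 0.35 with all 12 libraries (adjusted p = 0.21), and the replication licensing factor CDC6 by −1.08, a difference of 0.90. Of 26 tested FOXO factors and AKT-repressed genes, 17 rose and 2 fell in parental cells, and 3 rose and 2 fell in OVCAR8 NR. The difference was lower in OVCAR8 NR for 18 and higher for 2 (12 and 0 with all 12 libraries).

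**Figure D4:**
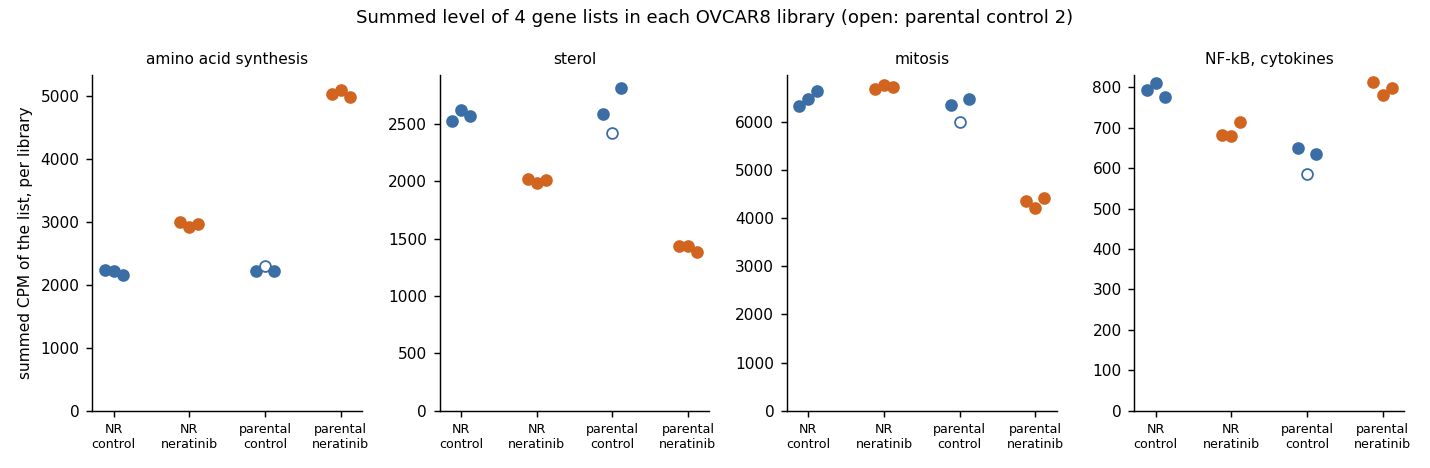
Summed CPM of 4 gene lists in each library of parental OVCAR8 and OVCAR8 NR with and without 1 µM neratinib, with parental control library 2 as an open point. The amino acid synthesis sum rose from 2155 to 2225 CPM in the OVCAR8 NR controls to between 2920 and 2994 CPM with drug, against 4980 to 5089 CPM in drug-treated parental cells.

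The last comparison set OVCAR8 NR beside 5637 NR, the other resistant derivative, whose dose was 600 nM and whose effect therefore differs in both line and dose. ERK target genes fell far in 5637 NR and little in OVCAR8 NR, and ASNS and many transporter and tRNA synthetase genes had the higher change in 5637 NR. Of 19002 genes the change was higher in OVCAR8 NR for 1710 (9.00%) and lower for 1480 (7.79%). By library size alone these were 1075 and 2116, so 33.7% of calls were higher in place of 53.6%. In the 5637 NR drug contrast, taken from the main fit of the difference, 3607 genes rose (19.0%) and 3546 fell (18.7%). These 2 drug contrasts compare different libraries, but the 5637 NR fit took its gene filter and spread partly from the OVCAR8 NR libraries. In both, 731 genes rose (44.8% of OVCAR8 NR rises, 22.6% of 5637 NR rises) and 995 fell (49.6% and 30.5%).

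Sprouty and SPRED genes differed in 6 of 6 cases, all with a higher change in OVCAR8 NR, and had a median change of −1.70 in 5637 NR and −0.18 in OVCAR8 NR. SPRY4 read 64.8, 59.8 and 66.8 CPM in the 5637 NR controls and 2.08, 1.64 and 1.51 CPM with drug, a difference between lines of 5.04 ± 0.14 (edgeR adjusted p = 1.5e-12). The OVCAR8 NR libraries, at 16.5 CPM or more, showed no fall of that kind. DUSP6 changed by −4.78 in 5637 NR, from 131, 134 and 128 CPM to 4.71, 5.14 and 5.52 CPM, a difference of 4.58 ± 0.13. Its treated 5637 NR level was near that of OVCAR8 NR with or without drug. ETV4 changed by −3.94, a difference of 3.49, and ETV5 by −4.26, a difference of 4.29. EGR1 changed by −6.90 in 5637 NR, from 42.8, 40.3 and 60.2 CPM to 0.439, 0.464 and 0.371 CPM, a difference of 6.15 ± 0.39 (edgeR adjusted p = 2.8e-08). Of 17 other ERK output genes, 14 had a higher and 1 a lower change in OVCAR8 NR, and of 39 ribosome biogenesis genes 29 and 0. Parental OVCAR8 cells at 1 µM gave changes of −0.77 for SPRY4, −0.35 for DUSP6, −0.54 for ETV5 and −1.48 for ETV4.

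**Figure D5:**
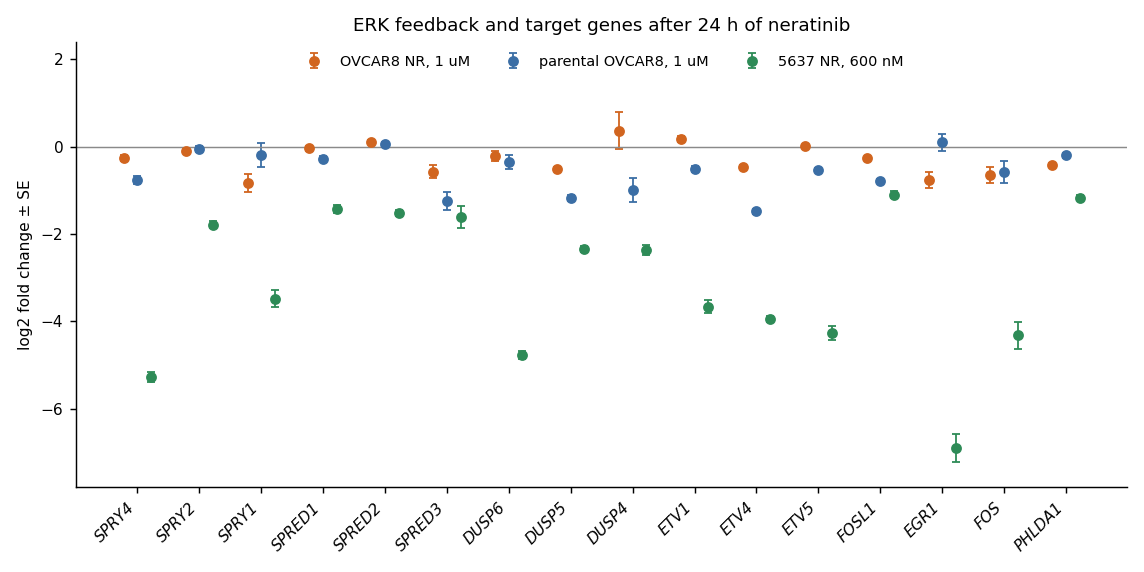
Log2 change (± SE) with neratinib of 16 ERK-regulated genes in OVCAR8 NR (1 µM), parental OVCAR8 (1 µM) and 5637 NR (600 nM), each from 3 control and 3 neratinib libraries (2 control libraries in parental OVCAR8). The SE of parental OVCAR8 and of 5637 NR came from fits that also held the OVCAR8 NR libraries. SPRY4 reached −5.28 in 5637 NR and −0.26 in OVCAR8 NR.

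On the amino acid side the order was reversed. ASNS went from 20.8, 21.2 and 23.3 CPM to 266, 298 and 281 CPM in 5637 NR, a log2 change of 3.59 and a difference of −1.86 ± 0.10 (edgeR adjusted p = 3.6e-09). Among 17 transporters 10 had a lower and 1 a higher change in OVCAR8 NR, among 19 cytosolic tRNA synthetases 11 and 3, and among 22 synthesis enzymes 9 and 3. For the regulators these counts were 6 and 3 of 17, and CHAC1 changed by 2.44 in 5637 NR with a difference of −0.59 ± 0.21 that did not pass (adjusted p = 0.068). CBS, which makes cystathionine from homocysteine and serine, read 13.4, 12.7 and 13.1 CPM in 5637 NR and 157, 123 and 145 CPM with drug, against 283, 273 and 261 CPM and 307, 289 and 306 CPM in OVCAR8 NR. The difference was −3.20. VEGFA went the other way in 5637 NR, with a change of −0.82 and a difference of 1.38. INSIG1 fell more in OVCAR8 NR, with a difference of −0.81.

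The remaining genes with the largest differences rested mostly on near-zero levels in one line. THBD, which encodes thrombomodulin, read 570, 603 and 626 CPM in the 5637 NR controls and had 0 counts in the OVCAR8 NR controls and 0.806, 0 and 0.154 CPM with drug, for a fitted difference of 7.33. CSF3, the G-CSF gene, had a difference of 7.05 that was 4.54 without OVCAR8 NR neratinib library 1 (adjusted p = 0.16), and LPCAT1, a lysophospholipid acyltransferase, had 5.56 with at most 0.215 CPM in any OVCAR8 NR library. These 3 genes were high in 5637 and, like KRT19, had their highest OVCAR8 NR value in neratinib library 1. MFAP5, a matrix microfibril gene, and CNN1, a calponin, stood the other way, with differences of −4.67 and −4.38 and at most 0.159 CPM in 5637 NR; the CNN1 call was lost in 11 of the 12 leave-one-out fits, the exception being that without 5637 NR neratinib library 2. IGFN1 rose from 9.36, 6.77 and 6.29 CPM to 113, 112 and 135 CPM in 5637 NR and by 0.50 in OVCAR8 NR, a difference of −3.38. The aldo-keto reductase AKR1C1 changed by 2.72 in 5637 NR and −0.18 in OVCAR8 NR (adjusted p = 0.6), a difference of −2.87; it has near-identical paralogs between which reads can be split.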

How the data were processed

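RNA was extracted from the cells of each dish and sequenced as stranded, paired-end mRNA libraries, per the labels' protocols. The deposited table holds raw counts per gene for 24 libraries and 39786 genes; the authors' processing used FastQC, STAR 2.5.3a, featureCounts 1.15.2, the hg19 build and DESeq2 1.18.1, per the submitters' processing notes. The strand setting and the gene annotation used in counting are not given in the sources used here, so reads from overlapping genes may be split.

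Here the counts were tested with edgeR 4.0.16 (R 4.3.3): filterByExpr, TMM scaling, quasi-likelihood test and Benjamini-Hochberg adjustment over all genes tested, with a threshold of 0.05. The drug effect in OVCAR8 NR was fitted on its 6 libraries (4 residual degrees of freedom, biological coefficient of variation 4.61%), the difference from parental OVCAR8 on 11 libraries, and the difference from 5637 NR on 12. The drug effects in parental OVCAR8 and in 5637 NR were taken from those fits of 11 and 12 libraries. CPM values are counts per 1000000 counts of the library total, without TMM factors. Total gene counts per OVCAR8 NR library were 42892034, 23849832 and 38997481 in the controls and 37238897, 45221673 and 45369835 with neratinib. Replicate pairs of a group differed by 2.57 times the counting noise or more (chi-square per degree of freedom), so no pair was counted as 1 sample. On counts simulated for 16708 genes of the OVCAR8 NR comparison, the test recovered 52%, 74%, 98% and 100% of planted log2 changes of 0.3, 0.5, 1 and 2, with 8 calls among unchanged genes. For the difference from parental cells these were 22%, 58%, 86% and 98%, and for that from 5637 NR 8%, 38%, 70% and 86%. Each simulation planted 50 genes per size, only above a minimum mean count, and took each gene's spread from the trend with level.

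Genes to name in OVCAR8 NR were those called, averaging 10 CPM or more in the higher group and not overlapping between groups: the top 10 rises and top 10 falls by log2 change. To these were added the 5 largest each way in each of the 2 differences, the ERBB receptors and detected ligands, and up to 4 rising and 4 falling members per list with at least 5 CPM. Clone and locus names were skipped, and some genes the rule picks are not reported here. The members and 54 gene lists were chosen with earlier results of these data known. Outside the rule, CEBPG, NUPR1, DUSP6, ETV5 and further marker genes were named after their values were seen. Upstream sequences come from RefSeq on GRCh38.p14; gene coordinates are those of the deposited table on hg19. Alternatives covered DESeq2 1.42.0, limma 3.58.1 (voom), other scalings and filters, leaving out each library, a replicate block and larger sets of libraries. Chosen after seeing the data were GC-adjusted offsets (a smooth of each library's log2 ratio on transcript GC content). So was the removal of OVCAR8 NR neratinib libraries 1 and 3, or of the genes far higher in 5637. Same-numbered control and neratinib libraries correlated by 0.076, 0.047 and 0.003, and other-numbered ones by −0.097 to 0.047. With 3 libraries per group these values cannot settle whether replicate numbers pair the libraries.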

Additional observations from a re-analysis of the deposited data

Results flagged for a closer look

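The drug effect differed between OVCAR8 NR and parental OVCAR8 by the edgeR test of the difference itself for the genes given here. It was higher in OVCAR8 NR by 1.66 on the log2 scale for TFRC, 1.42 for RN7SK, 1.36 for RN7SL1 and 1.26 for ACAT2. It was lower in OVCAR8 NR for INHBE (−3.77), DDIT4 (−3.36), IL20RB (−3.16), ASS1 (−2.65) and TRIB3 (−2.12). The OVCAR8 NR changes behind these were −0.13 for TFRC and 0.99 for INHBE, and the parental ones −1.79 and 4.76. RN7SK and RN7SL1 are not polyadenylated, and in the parental controls RN7SK read 13.4, 21.6 and 7.51 CPM, a spread over dishes that the OVCAR8 NR controls, at 4.13, 3.19 and 4.28 CPM, did not have.

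Between OVCAR8 NR and 5637 NR the same test gave a higher effect in OVCAR8 NR for THBD (7.33), CSF3 (7.05), EGR1 (6.15) and LPCAT1 (5.56), and a lower one for MFAP5 (−4.67), CNN1 (−4.38), IGFN1 (−3.38), CBS (−3.20) and AKR1C1 (−2.87). The line and the dose changed together in this comparison and cannot be told apart. THBD had 30 counts in OVCAR8 NR neratinib library 1 and 7 in library 3, and CSF3 23 and 0, in the libraries where KRT19 had 63 and 24; the part of carried-over 5637 transcripts in these genes was not tested. Without OVCAR8 NR neratinib library 1 the CSF3 difference was 4.54 and did not pass (edgeR adjusted p = 0.16). With limma voom the THBD difference was 3.68 (adjusted p = 0.081).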

How the results depend on the processing

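In the OVCAR8 NR comparison the count of rises fell to between 1037 and 1372 when 1 library was left out, lowest without neratinib library 1, and to 821 without neratinib libraries 1 and 3, where 1 treated library is assumed to vary like the controls. With all 12 OVCAR8 libraries 116 genes rose and 135 fell, with all 24 libraries 260 and 228, and at an adjusted p of 0.01 743 and 1049. The 20 largest changes kept their call in each of these fits. The replicate block gave 1668 rises and 2172 falls in OVCAR8 NR. Against parental cells it gave 2931 higher and 2749 lower, and against 5637 NR 1462 and 1255. Whether replicate numbers pair the libraries was not settled. Against parental cells all 12 libraries gave 835 higher and 760 lower. Against 5637 NR scaling by library size alone gave 1075 higher, and GC-adjusted offsets gave 2771 lower. DESeq2 gave 1427 rises and 1752 falls, with 25 changes of at least 2-fold in place of 107. With GC-adjusted offsets SOCS3 changed from −0.24 to 0.024, CCND1 from −0.13 to 0.046 and BOK from −0.17 to 0.024. Of 5201 values of 248 named genes under alternatives, 764 no longer passed, 3 passed newly and 3 reversed; for the differences these were 13 of 638 no longer passing against parental cells and 19 of 226 against 5637 NR. The cause was not tested. Changes of about 0.3 on the log2 scale were recovered in 52% of simulated cases. The simulation planted far fewer changed genes than were called here, so its rates may not hold for these data. Small changes that did not pass may be missed at this depth.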

Other observations

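Lysosome genes leaned upward in re-exposed OVCAR8 NR cells: 11 of 37 rose and 1 fell, with a median log2 change of 0.09, against rises in 9.61% of all genes. ASAH1, acid ceramidase, read 40.3, 39.7 and 39.9 CPM without and 51.9, 53.4 and 54 CPM with drug, a rise of 0.38. RRAGC, a GTPase that brings mTORC1 to the lysosome, rose by 0.31, and the hydrolase HEXA by 0.26. NPC1, which exports cholesterol from the lysosome, fell by 0.41. Of 27 interferon-stimulated and antigen presentation genes 7 rose and 2 fell. Among the rises were OAS3 (0.49), IFI44 (0.45) and DDX58 (0.34), which encodes the RNA sensor RIG-I. The falls were IRF7 (−0.40) and IFITM3 (−0.18), calls lost with GC-adjusted offsets. The summed CPM of the list overlapped between groups, at 604.7 to 632.5 without and 620.5 to 627.4 with drug. Of 24 NRF2 and glutathione genes 6 rose and 1 fell. NQO1, a quinone reductase, went from 132, 121 and 133 CPM to 208, 189 and 200 CPM, a rise of 0.60, and TXNRD1, thioredoxin reductase, rose by 0.24; SLC7A11 and CHAC1 stand in this list too.

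The counts in this paragraph stand beside 9.61% of all tested genes rising and 11.8% falling. Of 20 tested endoplasmic reticulum genes, 2 rose and 7 fell. HERPUD1, which serves ER-associated degradation, rose by 0.51 and the factor XBP1 by 0.25. The chaperones SDF2L1, HSP90B1 and HSPA5 fell by 0.73, 0.34 and 0.27. Adhesion and matrix genes also moved both ways. TGFBI, a secreted matrix protein, went from 394, 425 and 423 CPM to 581, 572 and 584 CPM, a rise of 0.46, and SNAI2 rose by 0.43, whereas fibronectin, FN1, fell by 0.63 and TGFB1 by 0.32. Of 17 YAP targets 8 fell and 2 rose, with F3, tissue factor, from 435, 433 and 434 CPM to 299, 300 and 307 CPM (−0.55), CTGF (−0.45) and CYR61 (−0.31) among the falls. Of 8 tested keratins 2 rose and 2 fell. The simple-epithelial keratin KRT7 read 457, 421 and 423 CPM without and 754, 642 and 729 CPM with drug, a rise of 0.68, and KRT80 rose by 0.78, whereas the simple-epithelial keratins KRT18 and KRT8 fell by 0.40 and 0.28.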
